A study of Mus musculus with 6 samples.

Results

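The genes described here are the cyclins, cyclin-dependent kinases and kinase inhibitors that act in G1, the phase of the cell cycle before DNA synthesis. They are the D-type cyclin genes Ccnd1, Ccnd2 and Ccnd3, the E-type cyclin genes Ccne1 and Ccne2, the kinase genes Cdk2, Cdk4 and Cdk6 and the inhibitor genes Cdkn1b and Cdkn2c. All non-control probes whose accession belongs to 1 of these 10 genes were taken, without regard to their signal. This gave 14 probes of the 55681 on the array and 10 of the 21368 genes to which a probe could be matched.

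RNA came from tongue tissue of 6 iDek mice on a C57Bl6 background, and each mouse gave 1 single-colour Agilent array. In iDek mice a Dek gene can be switched on with doxycycline (DOX), and the labels call it both ubiquitous and squamous cell-specific. Dek is a chromatin protein. Controls were 3 untreated mice (no DOX), and 3 mice had received DOX for 2 weeks (DOX), so the controls carry the inducible Dek as well. Mice without the transgene but given DOX were not analysed here, so effects of DOX and of Dek cannot be told apart. The driver of the transgene, the age of the mice and the hour of tissue collection are not given in the sources used here. A carcinogen appears in the title of the series but in none of the sample labels.

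In G1, D-type cyclins bind Cdk4 and Cdk6, and the active kinases phosphorylate the retinoblastoma family of pocket proteins. This releases E2F transcription factors, whose targets include the E-type cyclins, and cyclin E with Cdk2 then drives entry into S phase. Cdkn2c, of the INK4 family, binds Cdk4 and Cdk6, whereas Cdkn1b, of the CIP/KIP family, binds cyclin E and Cdk2 complexes. In tongue, the dividing cells are mostly those of the basal epithelium.

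Promoter sequence was shown for 4 members, because their values below differ in size or direction. They are Ccne1, which had the largest difference of the tested members, its partner Cdk2, and Cdk4 and Cdkn1b. The groups overlapped for Cdkn1b and for the brightest Cdk4 probe. Each line holds the 250 bases before the annotated start, 5′ to 3′ in the direction of the gene, from RefSeq on GRCm38.p6, the build of the RefSeq tables, whereas the array design was annotated on another build. Capitals mark matches on either strand to an E2F-like motif (TTTGGCGC, TTTCGCGC, TTTCCCGC or TTTGCCGC), to a GC box (GGGCGG) or to an E-box (CACGTG).
Ccne1, chr7:38107491-38107740, minus strand: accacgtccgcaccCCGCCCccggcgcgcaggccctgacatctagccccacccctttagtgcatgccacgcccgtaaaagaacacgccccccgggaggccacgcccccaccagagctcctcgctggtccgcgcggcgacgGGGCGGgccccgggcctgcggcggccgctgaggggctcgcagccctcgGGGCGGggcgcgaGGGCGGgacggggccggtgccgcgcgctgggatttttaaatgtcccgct
Cdk2, chr10:128705052-128705301, minus strand: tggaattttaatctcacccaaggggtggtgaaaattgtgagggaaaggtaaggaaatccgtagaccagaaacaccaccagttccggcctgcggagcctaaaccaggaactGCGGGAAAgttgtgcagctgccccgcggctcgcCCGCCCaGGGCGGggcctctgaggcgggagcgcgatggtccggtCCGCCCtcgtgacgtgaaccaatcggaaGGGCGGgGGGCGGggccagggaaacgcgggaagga
Cdk4, chr10:127063285-127063534, plus strand: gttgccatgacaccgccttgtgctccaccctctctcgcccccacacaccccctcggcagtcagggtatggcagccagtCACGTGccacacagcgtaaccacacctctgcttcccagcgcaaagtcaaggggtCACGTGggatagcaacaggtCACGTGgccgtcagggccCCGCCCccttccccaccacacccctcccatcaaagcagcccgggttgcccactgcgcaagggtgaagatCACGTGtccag
Cdkn1b, chr6:134920151-134920400, plus strand: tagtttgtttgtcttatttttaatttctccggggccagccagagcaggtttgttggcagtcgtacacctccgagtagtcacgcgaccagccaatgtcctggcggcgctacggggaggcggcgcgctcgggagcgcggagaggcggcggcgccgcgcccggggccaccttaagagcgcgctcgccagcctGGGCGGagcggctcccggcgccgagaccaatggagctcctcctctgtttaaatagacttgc

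A promoter sequence was matched for 7 of the 10 members, with 9 windows in all, and those of Ccnd1, Ccnd2 and Ccne2 were not used here. Cdk2 was the 1 member of the 7 with an E2F-like match, at positions -140 to -133 counted from the start, on the opposite strand. Such a match stood in 1.86% of the 32851 promoter windows of the table. Ccne1 had 4 GC boxes, Cdk2 had 5, and Cdk4 and Cdkn1b had 1 each, and 32.7% of all windows had at least 1. Cdk4 had 4 E-boxes, which begin at positions -172, -118, -98 and -11, and 6.02% of all windows held at least 1. The matches within a promoter did not overlap. A match is a run of letters and not evidence of binding, and a window without one says nothing of the factor.

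Levels below are normalised log2 signals, in which 0 is the 75th percentile of the probes on the same array. A probe's level depends on its own hybridisation, so levels of different probes cannot be ranked, and differences between groups can be read. All 6 arrays lay on 1 slide with 1 scan. Row 1 of that slide held the control arrays and DOX replicate 1, and row 2 held the other DOX arrays. The part of this layout in the results was not tested. Between 56.0% and 58.3% of probes per array were well above background and no spot was saturated. Dek was at 2.30, 2.10 and 2.20 in no DOX replicates 1 to 3 and at 2.41, 2.41 and 2.27 in DOX replicates 1 to 3, and the groups overlapped. Markers of squamous epithelium (8 of 8) and of skeletal muscle (7 of 7) were measured, and 0 of the 3 B cell markers passed the filter.

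None of the 10 genes passed the test across all features, and the largest differences were those of the cyclin genes Ccne1 and Ccnd1. Ccne1 had a mean 1.97-fold that of the controls and Ccnd1 1.77-fold, and Ccnd3 followed at 1.30-fold. The kinases Cdk2 and Cdk4 were both at 1.21-fold, and the inhibitors Cdkn1b and Cdkn2c had lower means, at 0.858-fold and 0.894-fold. Ccne2 and Cdk6 were too dim to be tested. Of the 8 tested genes, limma called 0 higher and 0 lower (Benjamini-Hochberg adjusted p under 0.05), while 0.404% of the 26256 genes and unnamed probes tested were called. Without adjustment 4 of the 8 had a p under 0.05, against 18.6% of all features. The 8 genes had a median log2 difference of 0.28, with 6 higher and 2 lower means, beside a median of -0.01 over all features. The groups did not overlap in 4 of the 8, against 25.3% of all features in either direction. These 4 were all higher with DOX, as were 12.7% of all features. The 8 genes were well above background on all 6 arrays, so the filter did not select them by group.

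**Figure D1:**
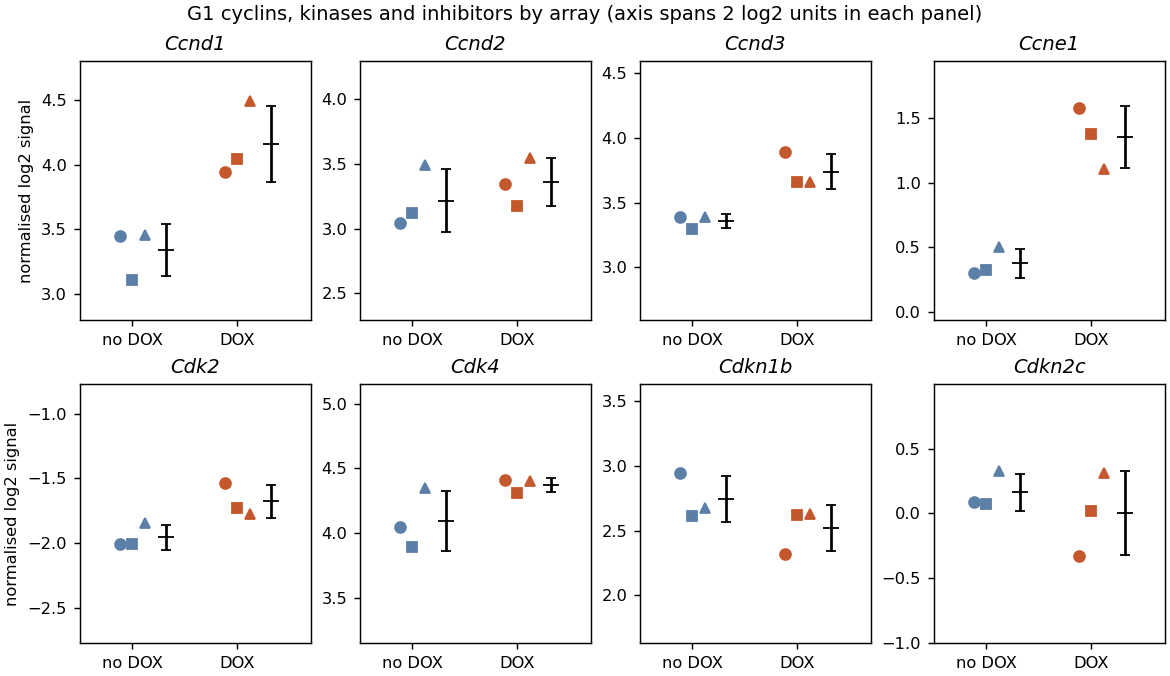
Normalised log2 signal of the 8 tested genes on each array, with circles, squares and triangles for replicates 1, 2 and 3, blue for no DOX, orange for DOX, and the mean with its SD (n = 3) as a black bar. The groups are apart for Ccnd1, Ccnd3, Ccne1 and Cdk2 and overlap for Ccnd2, Cdk4, Cdkn1b and Cdkn2c.

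Among the D-type cyclins, which carry mitogen signals to Cdk4 and Cdk6, Ccnd1 differed most. Its probe (A_66_P111562) read 3.45, 3.11 and 3.46 in no DOX replicates 1 to 3, and 3.95, 4.05 and 4.49 in DOX replicates 1 to 3. The lowest DOX array lay above the highest control, and DOX replicate 3 was the highest. The log2 difference was 0.82 ± 0.18 (SE, n = 3 and 3), with a 95% interval of the fold from 1.31 to 2.39 and an adjusted p of 0.104 (limma). A two-sided exact permutation test, with 20 ways to assign the arrays, returned p = 0.1, the smallest value that 3 against 3 arrays allow.

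Ccnd3, the D-type cyclin best known from lymphoid and muscle cells, was read by 2 probes. The brighter (A_55_P2041075) was at 3.39, 3.29 and 3.39 without DOX and at 3.89, 3.66 and 3.66 with DOX. The groups did not overlap, and the difference was 0.38 ± 0.11 (SE) with an adjusted p of 0.158 (limma). The other (A_51_P238448), designed on another transcript accession, read 1.93, 1.83 and 1.90 without DOX and 2.30, 2.12 and 2.18 with DOX. Its groups did not overlap either, at a difference of 0.32 ± 0.10 (SE), so the probes gave the same direction and near-equal sizes.

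Ccnd2, the third D-type cyclin, read 3.04, 3.12 and 3.49 in the controls and 3.35, 3.18 and 3.55 with DOX. These values overlapped, with replicate 3 highest in each group. The difference of 0.14 ± 0.16 (SE) did not pass (limma, adjusted p = 0.705), and its fold interval, 0.840 to 1.45, leaves room for a difference as large as that of Ccnd3. The value depended on single arrays. Leaving out control array 1, 2 or 3 gave 0.05, 0.09 and 0.28, and leaving out DOX array 2 or 3 gave 0.23 and 0.05. Whether Ccnd1 and Ccnd2 differ in response was not tested.

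Ccne1, the cyclin that activates Cdk2 at the start of S phase, had the smallest p of all members. Its brighter probe (A_51_P408946) read 0.30, 0.32 and 0.50 in no DOX replicates 1 to 3 and 1.58, 1.38 and 1.10 in DOX replicates 1 to 3. The groups were separated, and DOX replicate 1 was the highest, whereas for Ccnd1 it was the lowest of the DOX arrays. The log2 difference was 0.98 ± 0.15 (SE, n = 3 and 3), the fold interval ran from 1.54 to 2.52, and the adjusted p was 0.0629 (limma), just short of the threshold of 0.05. The exact permutation p was 0.1, the smallest possible. With normexp background correction, with a trended and robust variance, or with array weights Ccne1 passed (limma, adjusted p = 0.0383, 0.0392 and 0.0384). Over all features 166, 135 and 172 rose in these settings, beside 73 in the main one. The adjusted p of Ccne1 ran from 0.0383 to 0.207 over all alternatives.

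The other Ccne1 probe (A_66_P125327), on the same accession, was near the lower end of detection but well above background on all 6 arrays. It read -4.20, -4.27 and -4.21 without DOX and -2.90, -3.33 and -3.64 with DOX. The order of the DOX arrays was the same as for the brighter probe, and the difference was 0.94 ± 0.19 (SE, limma adjusted p = 0.0928). Ccne2, the second E-type cyclin, had 1 probe, which was well above background on 0 of the 3 control arrays and 1 of the 3 DOX arrays. Its processed signal was 1.88, 3.51 and 1.85 intensity units in the controls and 14.9, 2.17 and 2.20 with DOX. The value of DOX replicate 1 stood alone, and no fold is given.

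**Figure D2:**
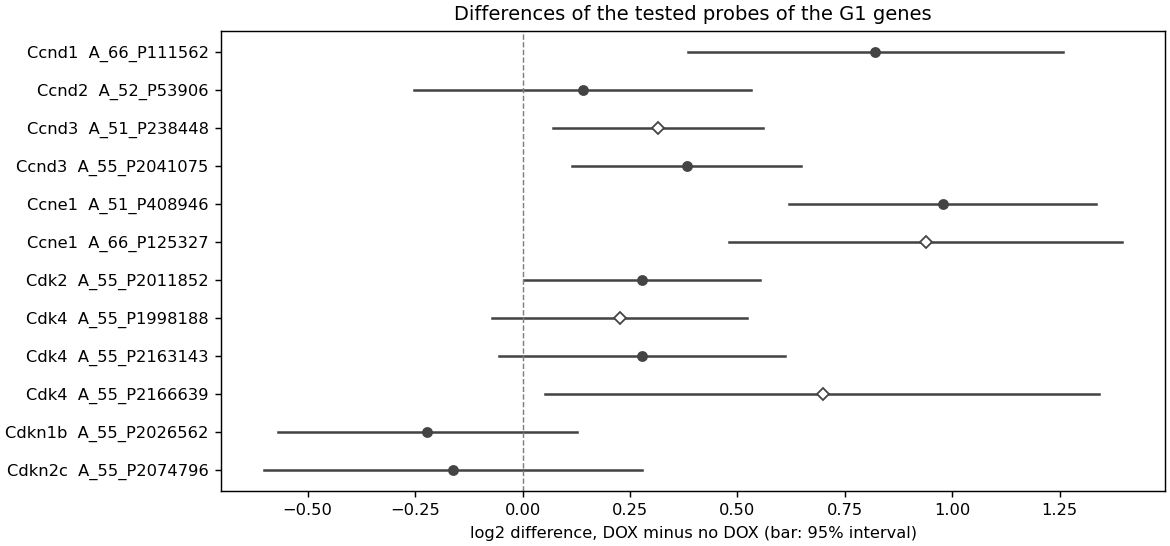
Log2 difference between DOX and no DOX for the 12 tested probes of the 8 genes, with 95% intervals, where filled circles mark the probe that stands for a gene and open diamonds its other probes. The 10 probes of cyclins and kinases lie above 0 and the 2 inhibitor probes below it, and the intervals of Ccnd2, of both Cdkn genes and of 2 Cdk4 probes cross 0.

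Of the kinases, Cdk2, the partner of cyclin E, read -2.01, -2.01 and -1.85 in the controls and -1.53, -1.73 and -1.77 with DOX. The gap between the groups was narrow, since no DOX replicate 3 lay close to DOX replicate 3. The difference was 0.28 ± 0.11 (SE) with an adjusted p of 0.263 (limma) and a fold interval from 1.00 to 1.47. It was 0.11 with normexp background correction, which shrinks the differences of dim probes. Cdk6, the second partner of the D-type cyclins, was well above background on 1 control array and on no DOX array. Its processed signal was 13.5, 6.31 and 6.51 intensity units without DOX and 9.98, 4.48 and 9.51 with DOX, so that the groups overlapped and no fold is given.

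Cdk4, the main partner of the D-type cyclins in many tissues, was read by 3 probes on 1 accession. The brightest (A_55_P2163143) read 4.04, 3.89 and 4.35 without DOX and 4.41, 4.31 and 4.40 with DOX. No DOX replicate 3 lay among the DOX values, and the difference of 0.28 ± 0.14 (SE) had an adjusted p of 0.338 (limma). Leaving out control array 2 gave 0.18. The probe A_55_P1998188 gave 0.23 ± 0.12 (SE), with overlapping groups. The probe A_55_P2166639 read 1.14, 2.15 and 2.08 without DOX and 2.52, 2.48 and 2.47 with DOX, and its groups did not overlap. Its difference of 0.70 ± 0.27 (SE) was the largest of the 3 and included a value of no DOX replicate 1 that lay about 1 log2 unit below the other controls, which the other Cdk4 probes did not show. None of the 3 probes passed.

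The inhibitors had lower means with DOX, and the difference was within the spread of the arrays. Cdkn1b, which binds cyclin E and Cdk2 complexes, read 2.95, 2.61 and 2.67 in the controls and 2.32, 2.62 and 2.63 with DOX. DOX replicates 2 and 3 lay among the controls and DOX replicate 1 below them. The difference was -0.22 ± 0.14 (SE), with a fold interval from 0.674 to 1.09 and an adjusted p of 0.460 (limma). Leaving out array 1 of either group gave -0.12. Cdkn2c, which binds Cdk4 and Cdk6, read 0.08, 0.07 and 0.33 in the controls and -0.33, 0.02 and 0.32 with DOX. Its difference of -0.16 ± 0.18 (SE, adjusted p = 0.695, limma) was 0.00 when DOX array 1 was left out, -0.08 when control array 3 was, and -0.32 when DOX array 3 was. DOX replicate 1 thus had the highest Ccne1, Ccnd3 and Cdk2 signals and the lowest Cdkn1b and Cdkn2c signals of the DOX arrays. It also had the lowest Ccnd1 signal. Its Ccnd2 signal lay between those of the other DOX arrays, and its Cdk4 signal was near-equal to that of DOX replicate 3.

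**Figure D3:**
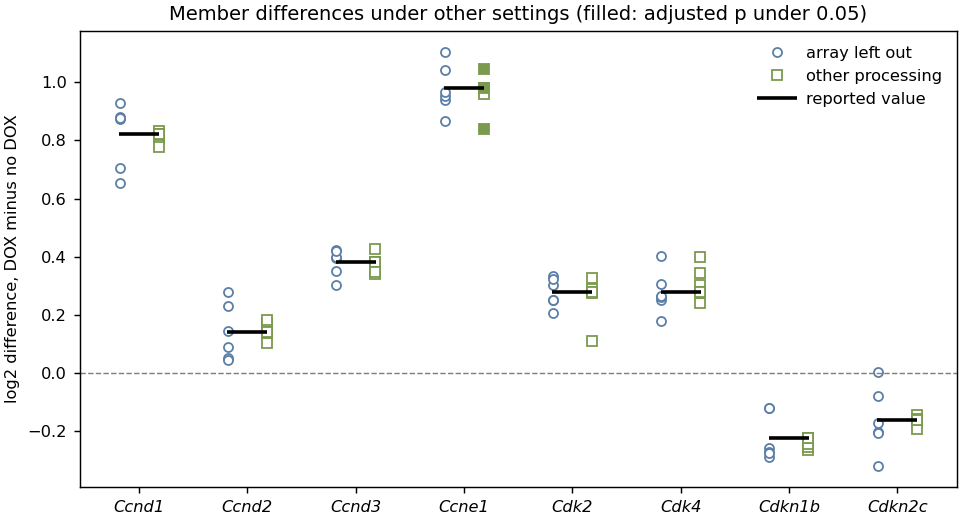
Log2 difference of the 8 tested genes as reported (black line), with 1 array left out (blue circles, 6 fits) and under the other processing choices (green squares, 10 fits), filled where the adjusted p was under 0.05. Filled marks occur for Ccne1 alone, and Cdkn2c touches 0 when DOX replicate 1 is left out.

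The rest of the G1/S machinery was read from a list of 36 genes, chosen with earlier results of these data known, so its counts are a description. Of its 35 tested members, 1 rose and 0 fell (limma, adjusted p under 0.05), where 0.404% of all features were called, and the median log2 difference was 0.14. An unadjusted p under 0.05 was found for 12 of the 35, against 18.6% of all features. The groups did not overlap in 13 of the 35, all higher with DOX, against 12.7% of all features in that direction. The gene that rose was E2f1, an activating E2F transcription factor downstream of the G1 kinases. It read -1.27, -1.45 and -1.32 without DOX and -0.07, -0.23 and -0.10 with DOX. The groups were far apart relative to their spread, and the log2 difference was 1.21 ± 0.11 (SE, adjusted p = 0.0166, limma). The call was lost, at adjusted p = 0.0669, 0.0900 and 0.0724, when no DOX replicate 1, 2 or 3 was left out, and at 0.0653 and 0.0530 without DOX replicate 1 or 3. The difference lay between 1.16 and 1.26 in the 6 fits with 1 array left out. The call was also lost with no filter on dim probes (limma, adjusted p = 0.0683) and with replicate number as a block (limma, adjusted p = 0.0985). Calls were lost across the array as well. Over all features 73 rose with all arrays, and 1, 2 and 12 without no DOX replicate 1, 2 or 3. Without DOX replicate 1 or 3, 11 and 13 rose. With no filter or with the block, 0 of all features rose.

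By role, means were higher for 8 of the 10 pocket protein and E2F genes and lower for 2. After E2f1 the smallest p in this role belonged to E2f3 (0.56 ± 0.10, SE), another activating E2F, and to Tfdp1, the dimerisation partner of E2F proteins (0.68 ± 0.13, SE). Neither passed (limma, adjusted p = 0.0828 and 0.0892), although E2f3 did with normexp background correction (adjusted p = 0.0410). Of the 3 pocket proteins, which hold E2F in check, Rb1 and Rbl2 were at -0.11 ± 0.11 and -0.15 ± 0.14 (SE), with overlapping groups, and Rbl1 at 0.39 ± 0.12 (SE), with groups that did not overlap. None of the 3 passed (limma, adjusted p = 0.623, 0.615 and 0.173), and they were chosen with their values in view. In the group of S-phase cyclin and phosphatase control, Cdc25a, the phosphatase that activates Cdk2, was at 0.52 ± 0.13 (SE), and Wee1, a kinase that inhibits Cdk1 and Cdk2, at 0.79 ± 0.15 (SE). Neither of these passed. Ccna2, the cyclin of this group, was at 0.16 ± 0.20 (SE, adjusted p = 0.732, limma), with overlapping groups. The 2 tested mitogen input genes had lower means, Myc at -0.19 ± 0.21 and Mycl at -0.83 ± 0.43 (SE). Means were higher for 2 CDK-activating kinase genes and lower for 1, and higher for 4 assembly genes and lower for 1.

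Skp2, the ubiquitin ligase subunit that marks Cdkn1b for destruction, read -3.23, -3.42 and -2.93 without DOX and -2.00, -2.39 and -2.13 with DOX. Its groups did not overlap, and its difference of 1.02 ± 0.17 (SE) missed the threshold (limma, adjusted p = 0.0710), as it did under all alternatives but array weights (adjusted p = 0.0460). The Skp2 difference was 0.45 with normexp. The other 6 genes of the destruction group lay between -0.16 and 0.19. Among the 5 other inhibitors 2 had a higher and 3 a lower mean, and 0 passed (limma), with 1 at an unadjusted p under 0.05. That 1 was Cdkn1c, a CIP/KIP inhibitor named after its value was seen, at 0.53 ± 0.17 (SE).

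**Figure D4:**
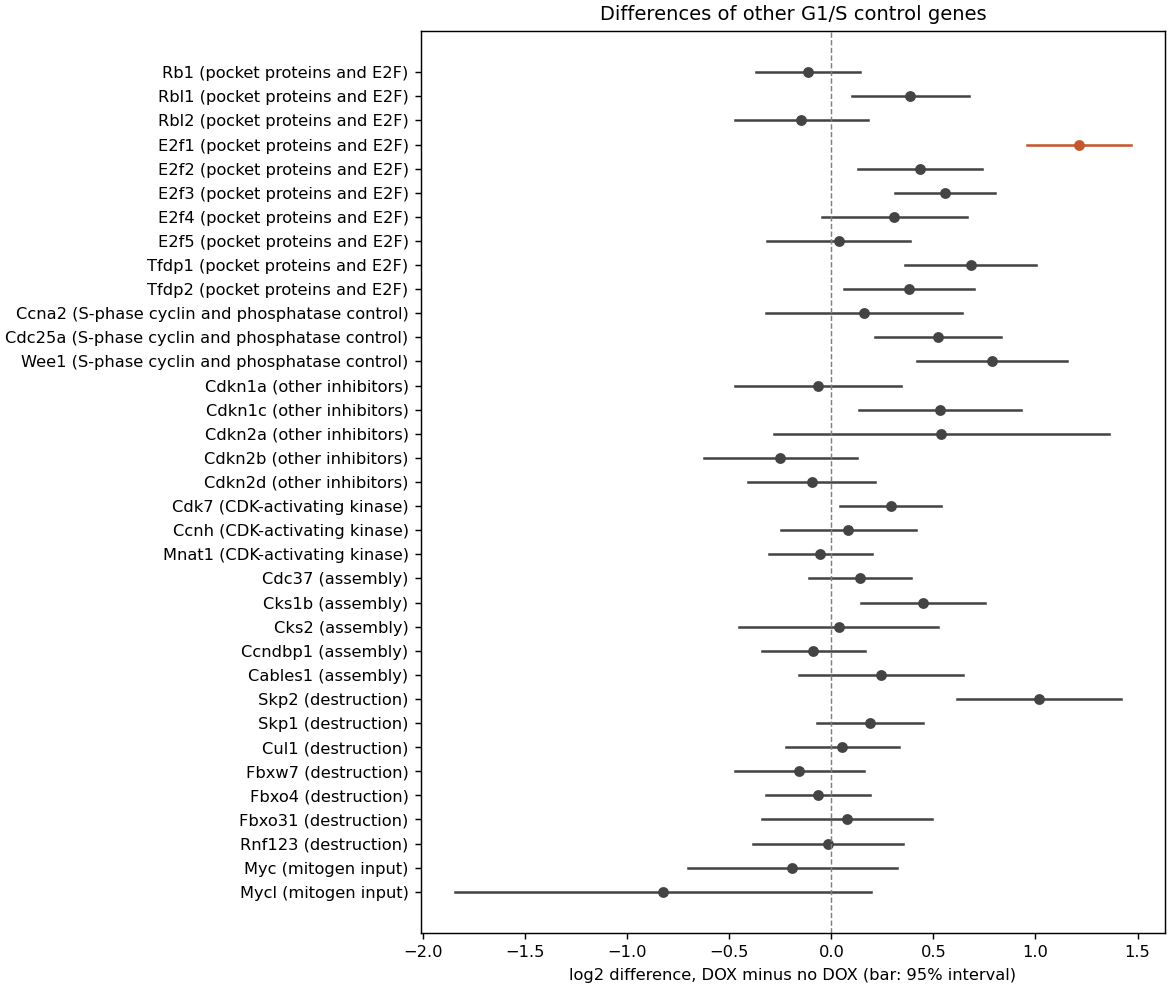
Log2 difference between DOX and no DOX for the 35 tested genes of the wider G1/S list, with 95% intervals and the role of each gene in brackets. E2f1 (orange) is the gene that passed, at 1.21, and Skp2 is next at 1.02.

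Markers of proliferating cells were read beside these values. Of 8 listed, 7 were tested and 2 rose, where 0.278% of all features were called higher. These were Pcna, the replication clamp (0.86 ± 0.10, SE, adjusted p = 0.0360, limma), and Mcm2, a subunit of the replicative helicase (1.36 ± 0.14, SE, adjusted p = 0.0241, limma). The other 5 did not pass: Cdk1, the mitotic kinase gene, was at 0.61 ± 0.24 (SE), Top2a at 0.38 ± 0.28, Birc5 at 0.13 ± 0.25, Mki67 at -0.03 ± 0.22 and the mitotic cyclin gene Ccnb1 at -0.24 ± 0.24, all with overlapping groups. Summed levels here are the log2 of added linear signals, so bright probes weigh most. The summed level of the 7 markers, in which Birc5, Pcna and Mki67 weigh most, overlapped between groups. It ran from 4.50 to 5.01 without DOX and from 4.90 to 5.22 with DOX. The summed level of squamous epithelial markers, in which Krt13 weighs most, was 10.5 to 10.8 and 10.5 to 10.7. Of these 8 markers 3 had a higher and 5 a lower mean, and 0 passed (limma). Krt6a was at 0.63 ± 0.40 and Krt14 at 0.43 ± 0.35 (SE), with overlapping groups. Krt15 at -0.46 ± 0.19 and the brighter Trp63 probe at -0.15 ± 0.11 (SE) had groups that did not overlap. Sox2 was at -0.49 ± 0.19 (SE), with overlapping groups. The summed level of muscle markers was 10.7 to 11.1 and 10.8 to 11.2. Of the 4 lingual gland markers, 3 were higher on every DOX array than on any control, as were 12.7% of all features. Their differences were larger than that of any of the 8 tested G1 genes and did not pass. Their mean was 3.53-fold that of the controls for Bhlha15, a transcription factor of secretory cells, 5.87-fold for Lpo and 91.2-fold for Bpifa2 (limma, adjusted p = 0.0648, 0.0802 and 0.129). Bpifa2 also varied among the controls, at 2.16, -2.50 and 4.43. The mucin gene Muc5b was at -0.28 ± 0.17 (SE). The summed level of the 4, in which Muc5b weighs most, was 10.3 to 10.4 and 10.3 to 10.5. Among the 5 T cell markers 1 mean was higher, Cd4 at 0.31 ± 0.13 (SE), and 4 were lower. Of these, Lck was at -0.40 ± 0.18, Cd3g at -0.39 ± 0.24 and Cd3e at -0.04 ± 0.10 (SE). Cd8a passed the filter through the controls alone, with 0 of 3 DOX arrays well above background. Its control mean was 1.72-fold the level of the dimmest probes well above background on the DOX arrays, which is no fold between groups. Its processed signal was near background, at 15.45 to 19.0 intensity units without DOX and 3.45 to 5.72 with DOX, so no test is given. The other Cd8a probe was well above background on no array. The summed level of the 5 markers, in which Cd4 weighs most, was 2.84 to 3.02 and 2.94 to 3.13. All 4 macrophage markers had a higher mean. Lyz2 was at 1.03 ± 0.17 (SE, adjusted p = 0.0704, limma), with groups that did not overlap. Cd68 was at 0.26 ± 0.17, Adgre1 at 0.23 ± 0.23 and Csf1r at 0.08 ± 0.14 (SE), with overlapping groups. The dimmer Csf1r probes were at -0.24 ± 0.13 and 0.05 ± 0.14 (SE). The summed level of the 4 macrophage markers was 3.74 to 3.82 and 3.78 to 4.13. All 3 fibroblast markers had a lower mean without passing, and their groups overlapped. Col1a1 was at -0.44 ± 0.22, Col1a2 at -0.66 ± 0.26 and Pdgfra at -0.03 ± 0.22 (SE). The summed level of these 3 was 4.74 to 5.19 and 4.08 to 4.83. The 3 endothelial markers summed to 4.11 to 4.19 and 4.02 to 4.19, and the 3 Schwann cell markers to 5.79 to 6.21 and 5.63 to 5.88. The part of any of these cell types in the G1 values was not tested. In bulk tissue, fewer cells of a type and less RNA per cell cannot be told apart.

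Profiles over the 6 arrays were compared with those of Ccne1 and Ccnd1, the 2 members with the smallest p, by the root mean square difference of log2 values after each gene was centred on its mean, over 14433 named genes. Nearest to Ccne1 were Wfdc12 (0.05), Phlda1 (0.07) and Efcc1 (0.07), where the median over all genes was 0.54. Phlda1 was the 1 of these that passed (0.98 ± 0.13, SE, adjusted p = 0.0461, limma). Nearest to Ccnd1 were Ccl25 (0.10), Serpina1c (0.11) and Tppp3 (0.12), where the median was 0.50, and none of these passed. This is a description of likeness over 6 arrays, with no test.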

How the data were processed

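Cy3-labelled cRNA from tongue RNA of 6 mice was hybridised to single-colour Agilent mouse arrays, per the labels' protocols. Spot intensity, on a linear scale and already background-subtracted, was deposited by the authors as the output of Agilent Feature Extraction 11.5.1.1 (per the submitters' processing notes). The deposited series value table is the same intensity times 1 factor per array (3.70 to 3.99), by a rule not given in the sources used here, with column medians of 102.5, 94.2 and 92.7 for no DOX and 90.01, 97.5 and 93.7 for DOX replicates 1 to 3. Its scale is linear, its values are not centred, and it was used as an alternative.

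Here log2 processed signals were averaged over the spots of a probe, without 146 to 195 outlier spots per array, and each array's 75th percentile over probes was subtracted. Accessions matched 1 symbol of a RefSeq gene table (GRCm38.p6) for 28331 probes and none for 27350. Probes well above background on all 3 arrays of a group were tested (30934 probes, 26256 genes and unnamed probes), and the brightest probe stood for a gene. limma 3.58.1 in R 4.3.3 (lmFit, eBayes, two-sided, all 6 arrays, Benjamini-Hochberg over all tested probes, threshold 0.05) was checked on simulated arrays. The number of arrays limits the precision. Members, lists and naming rules were chosen with earlier results of these data known; the rule described every member, with the 4 of smallest p in full, and the 6 genes of smallest p in the wider list. Normexp (offset 50) used the median signal, since the mean signal is not among the columns used here. The labels speak of separate mice. Replicate numbers were not treated as pairs.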

Additional observations from a re-analysis of the deposited data

How the results depend on the processing

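For the G1 genes, the count that rose was 0 and became 1, namely Ccne1, with normexp background, with trend and robust variance and with array weights; it was 0 in the other 7 processing alternatives and in each of the 6 fits with 1 array left out. The count that fell was 0 throughout these settings. Over all features, 73 rose and 33 fell in the main setting. With normexp background 166 rose and 80 fell, with trend and robust variance 135 and 57, and with array weights 172 and 100. With 1 array left out, 1 to 39 of all features rose, and 0 did with no filter on dim probes. For the wider G1/S list, the count that rose was 1, and it was 2 with normexp background (E2f1 and E2f3) and with array weights (E2f1 and Skp2), 0 with no filter on dim probes, and 0 to 1 with 1 array left out. Under the replicate block it was 0 (E2f1 adjusted p = 0.0985), the G1 genes' smallest adjusted p was 0.176, and 0 of all features rose and 0 fell, beside 73 and 33 without the block (limma; 4 G1 genes had an unadjusted p under 0.05 without it). The deviations of same-numbered arrays correlated at -0.115, -0.009 and 0.01, so the numbers gave no sign of pairing. Directions of the 8 G1 genes held in all fits but 1: Cdkn2c ranged from -0.32 to 0.0042 with 1 array left out. In the wider list 9 genes with differences near 0 changed sign in such fits: E2f5 (-0.0445 to 0.17), Cdkn1a (-0.24 to 0.052), Cdkn2d (-0.19 to 0.009), Ccnh (-0.0246 to 0.14), Cks2 (-0.0901 to 0.21), Cul1 (-0.0071 to 0.12), Fbxo4 (-0.11 to 0.0033), Fbxo31 (-0.0548 to 0.19) and Rnf123 (-0.13 to 0.0826). The causes were not tested. Ccne2 and Cdk6, near background, are limited by signal.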
